A study of Arabidopsis thaliana with 8 samples.

Results

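Transcript levels were compared between seedlings labelled rlt1/2, homozygous mutant for both RLT1 and RLT2 (rlt1(-/-)rlt2(-/-)), and wild type (WT), all Arabidopsis thaliana of the Col-0 ecotype. The comparison took 2 rlt1/2 and 2 WT libraries, 4 of the 8 libraries of the series, and every gene of the rlt1/2 table with a value of at least 10 in 2 or more of them, which was 20741 of 23248 genes. Seedlings were taken whole for mRNA sequencing at 10 days, from MS plates kept in a daily cycle of 16 h light (23 °C) followed by 8 h darkness (21 °C). Direct contrasts used the remaining mutants of the same complex, arid5 (arid5(-/-)) and chr11/17 (chr11(-/-)chr17(-/-)), with 2 libraries each. The labels give no allele names and do not say whether a group's libraries came from different plants. The p-values therefore reflect no more than the variation among these libraries, part of which may be technical.

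ISWI remodellers are ATP-driven complexes that slide and space nucleosomes along DNA. In Arabidopsis the ATPases CHR11 and CHR17 act with DDT-domain partners, among them RLT1 and RLT2, and ARID5 is a further subunit named in the title of the series. Plants lacking RLT1 and RLT2 are known for early flowering, and the series asks how this complex bears on the transition to flowering.

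Levels are the deposited normalised signal, in which reads are adjusted to a common library size gene by gene, so that values need not be whole and are not strictly proportional to reads. They are not corrected for gene length. The recovered reads in the rlt1/2 table totalled 27450570 and 29967994 in the rlt1/2 libraries, against 25913064 and 25831163 in the WT libraries. The 100 genes with most reads took 19.8% and 18% of reads in rlt1/2, against 28% and 27.4% in WT. Changes are log2 fold changes, rlt1/2 minus WT, on the log2(value + 10) scale with their standard error (n = 2 libraries a group), and "called" means a limma p under 0.05 after Benjamini-Hochberg adjustment over all 20741 genes. Each fold is the ratio between the group means of scaled recovered reads.

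The mutated genes were examined first, to check the labels. RLT2 (AT5G44180, TAIR10.1 chr5:17782428-17790234) had 88 and 61 in rlt1/2, against 2292 and 2161 in WT, and fell by 4.75 ± 0.14 (29.9-fold, adjusted p = 1.92e-09). Both rlt1/2 libraries lay far below both WT libraries. RLT1 (AT1G28420, TAIR10.1 chr1:9979478-9987737) had 2318 and 1908 in rlt1/2, against 1955 and 1970 in WT, and was not called (0.10 ± 0.089, adjusted p = 0.385). Leaving out rlt1/2 replicate 2 made it a called rise (0.24, adjusted p = 0.00795), as did scaling to the same library total (0.37, adjusted p = 0.00182). Its groups overlapped, so that the transcript total alone does not show the rlt1 mutation, and every direction given here rests on the label. Summed over a whole gene, reads cannot say whether a mutant transcript was intact.

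Among the 8 ISWI subunit genes, 3 rose, only RLT2 fell and 4 were not called, against 23.8% of all genes called higher and 24% called lower (47.9% in either direction). The median of the 8 was 0.22, beside 0.01 over all genes. CHR17, an ATPase of the complex, had 2193 and 2229 in rlt1/2, against 1547 and 1455 in WT (0.56 ± 0.072, 1.47-fold, adjusted p = 5.11e-05). ARID5 had 1204 and 1125 in rlt1/2, against 920 and 933 in WT (0.33 ± 0.078, 1.26-fold, adjusted p = 0.00417). Both stood higher in each rlt1/2 library than in either WT library, as did RLT3, a relative of RLT1 and RLT2 (0.29 ± 0.11, 1.23-fold, adjusted p = 0.0482), whose call was lost under 8 of the alternatives run. CHR11 (0.18 ± 0.073, adjusted p = 0.0587), the MSI3 gene (0.25 ± 0.12, adjusted p = 0.104) and FHA2 (-0.18 ± 0.087, adjusted p = 0.115) were not called. With equal library totals 6 subunit genes were called higher and with a replicate block 5, CHR11 and MSI3 under both, and CHR11 was also called with quantile normalisation and without rlt1/2 replicate 2.

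The loci beside the mutated genes were read as a check on local effects. GLK2, which lies next to RLT2 (TAIR10.1 chr5:17798262-17800926) and encodes an activator of nuclear photosynthesis genes, had 3900 and 3597 in rlt1/2, against 8228 and 7779 in WT (-1.09 ± 0.078, 2.13-fold, adjusted p = 6.31e-07). GLK2 also stood below WT in the other mutants. In CPM, defined with the contrasts below, it had 309 and 292 in WT, 166 and 190 in arid5 and 38.4 and 52 in chr11/17. Its fall was thus not particular to rlt1/2, and a local effect was not tested. CBP20, a subunit of the nuclear cap-binding complex and the next locus on, had 744 and 798 in rlt1/2, against 996 and 894 in WT (-0.29 ± 0.087, 1.23-fold, adjusted p = 0.0158). On the RLT1 side AT1G28400, the second locus before it, had 2567 and 2935 in rlt1/2, against 2157 and 2403 in WT (0.27 ± 0.085, 1.21-fold, adjusted p = 0.0206). These 3 were the only called genes among the 5 annotated loci on either side of RLT1 and of RLT2. Over all genes tested 47.9% were called, so that calls were not more frequent among these neighbours. Another 10 neighbours were tested and not called, 3 had values below the filter, and 4 were not analysed here. The call of CBP20 was lost without WT replicate 1, with equal library totals, with quantile normalisation and by DESeq2, and that of AT1G28400 without WT replicate 1 or rlt1/2 replicate 2.

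Across all genes 9926 were called, 4944 higher and 4982 lower in rlt1/2, and the groups did not overlap in 9921 of these. With 2 libraries a group, a call nearly requires groups apart, so that this count is no separate support. The median size of a called change was 0.617 and the smallest was 0.182. Larger changes leaned to rises, with 1288 genes called higher and 790 called lower by more than 1, and 183 and 70 by more than 2. The split depends on scaling: with library totals made equal, 9680 genes were called higher and 2695 lower, and the median of all genes moved to 0.27.

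The 15 largest rises were led by BAM5 and DXPS1. BAM5, a beta-amylase outside the plastid, had 12532 and 27696 in rlt1/2, against 229 and 292 in WT (6.12 ± 0.25, 77.2-fold, adjusted p = 1.47e-08). The rlt1/2 libraries differed more than 2-fold from each other here, yet both lay far above WT. DXPS1 had 815 and 527 in rlt1/2, against 0 and 0 in WT, with no read in either WT library, so that it was at least 193-fold higher against 3 reads per library (6.06 ± 0.22, adjusted p = 7.08e-09). TH8, a thioredoxin h, had 2039 and 2125 in rlt1/2, against 79 and 41 in WT (4.95 ± 0.20, 34.5-fold, adjusted p = 9.98e-09). RNS1, a secreted ribonuclease, had 967 and 1393 in rlt1/2, against 30 and 27 in WT (4.93 ± 0.17, 41.5-fold, adjusted p = 4.87e-09). GPT2, the glucose 6-phosphate transporter of the plastid envelope, had 1503 and 1972 in rlt1/2, against 48 and 48 in WT (4.90 ± 0.14, 36.1-fold, adjusted p = 1.92e-09). In these 5 genes every rlt1/2 library stood above every WT library, as the choice of the genes required. The other rises were 4.6 ± 0.24 for NATA1, an ornithine acetyltransferase, 4.59 ± 0.20 for AP3, 4.48 ± 0.21 for the aldehyde oxidase AO4, 4.23 ± 0.21 for the metallothionein MT1B and 4.19 ± 0.21 for the uridine kinase-like UKL5. The list ended with the noncoding AT3G05945 (4.12 ± 0.22), the cellulose synthase-like CSLG2 (4.04 ± 0.23), AT5G45095 (3.95 ± 0.18), AT1G75945 (3.93 ± 0.23) and the lanosterol synthase LAS1 (3.90 ± 0.21). DXPS1, AP3, AO4, UKL5, AT3G05945, CSLG2 and AT1G75945 passed the filter through the rlt1/2 libraries alone, so that they had to differ.

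The 15 largest falls began with RLT2. PCR1, a small membrane protein gene, had 2 and 1 in rlt1/2, against 247 and 151 in WT, with 2 and 1 reads in rlt1/2, so that its fold is known only within a counting interval (154-fold, 95% interval 52.2 to 749; -4.17 ± 0.26, adjusted p = 2.13e-07). PORA, the protochlorophyllide reductase of etiolated seedlings, had 23 and 33 in rlt1/2, against 320 and 353 in WT (-3.21 ± 0.19, 12.1-fold, adjusted p = 1.43e-07). MAPKKK6, a mitogen-activated kinase kinase kinase, had 62 and 51 in rlt1/2, against 644 and 657 in WT (-3.31 ± 0.14, 11.5-fold, adjusted p = 1.66e-08). ACD6, a membrane protein of salicylic acid defence, had 316 and 132 in rlt1/2, against 1684 and 2057 in WT (-3.12 ± 0.27, 8.32-fold, adjusted p = 2.36e-06). The groups were apart in each, as the choice of the genes required. The rlt1/2 libraries of ACD6 differed from each other by more than 2-fold. The remaining falls were AT1G26620 (-3.40 ± 0.15), AT5G45310 (-3.34 ± 0.23), DAA1 (-3.12 ± 0.25), AT5G54585 (-3.05 ± 0.15), the basic pathogenesis-related gene PRB1 (-2.98 ± 0.34), AT2G15020 (-2.92 ± 0.11), AT1G76960 (-2.90 ± 0.14), the chloroplast cryoprotectant COR15B (-2.87 ± 0.22), AT3G23480 (-2.85 ± 0.18) and AT1G24147 (-2.84 ± 0.21). PCR1 and AT5G45310 passed the filter through the WT libraries alone, so that they had to differ.

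**Figure D1:**
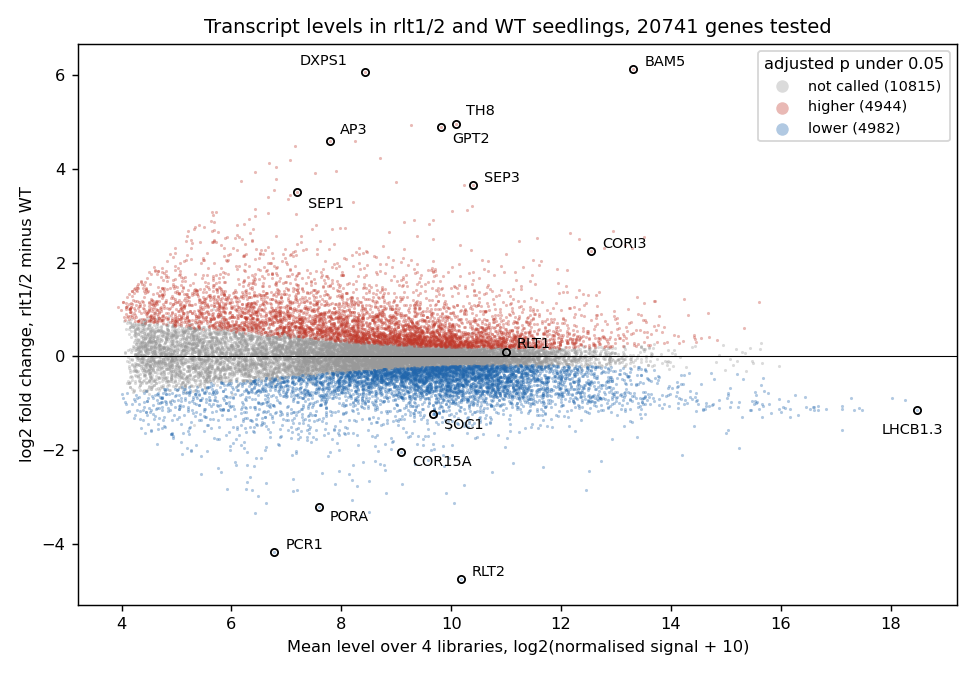
Each point is a gene, with its mean level over the 4 libraries as log2(normalised signal + 10) on the x axis and its log2 fold change, rlt1/2 minus WT, on the y axis, red where called higher (4944), blue where called lower (4982) and grey where not called (10815). Circled genes were picked for labelling after their values were seen, and show RLT2 at the bottom, RLT1 near 0, BAM5 and DXPS1 at the top, and the highest gene, LHCB1.3, below 0.

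Floral organ identity genes were the first group of interest, since MADS-box genes of this class are normally silent in leaves. Among 10 genes 4 were called higher, 1 lower and 5 neither, with a median of 0.38. Over all genes 23.8% were called higher and 24% lower, and each list count below is to be read beside these shares. AP3 (AT3G54340, TAIR10.1 chr3:20119140-20121314), which specifies petals and stamens, had 360 and 467 in rlt1/2, against 9 and 6 in WT (4.59 ± 0.20, 54.8-fold, adjusted p = 2.12e-08). SEP3 (AT1G24260, TAIR10.1 chr1:8593536-8596123), a cofactor of all floral organ programmes, had 2181 and 2801 in rlt1/2, against 170 and 209 in WT (3.65 ± 0.12, 13.2-fold, adjusted p = 4.37e-09). SEP1, a related cofactor, had 241 and 280 in rlt1/2, against 11 and 17 in WT (3.51 ± 0.21, 18.8-fold, adjusted p = 1.6e-07). The libraries of the 2 groups were far apart in all 3 genes. SHP2, a carpel and fruit gene, had 18 and 25 in rlt1/2, against 0 and 3 in WT (1.45 ± 0.30, adjusted p = 0.00157), with 3 reads over both WT libraries (12.6-fold, 95% interval 4.09 to 63.3). SHP2 and AP3 passed the filter through the rlt1/2 libraries alone, so that they had to differ. Without either rlt1/2 library they no longer passed it, and the list held 2 rises.

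PI and AG, partners of AP3 and SEP3 in the flower, were low in every library. PI, which pairs with AP3, had 15 and 9 in rlt1/2, against 17 and 14 in WT (-0.22 ± 0.27, adjusted p = 0.539). AG, the stamen and carpel gene, had 17 and 19 in rlt1/2, against 14 and 7 in WT (0.48 ± 0.28, adjusted p = 0.182). Neither was called, nor were FUL (-0.03 ± 0.24), SEP2 (0.02 ± 0.28) and SHP1 (0.28 ± 0.31). SEP4 fell, with 160 and 126 in rlt1/2, against 276 and 200 in WT (-0.69 ± 0.18, 1.66-fold, adjusted p = 0.00649). SEP4 was not called once WT replicate 1 was left out. AP1 had 6 and 4 in rlt1/2, against 0 and 0 in WT, LFY 4 and 5 in rlt1/2, against 1 and 3 in WT and STK 7 and 15 in rlt1/2, against 6 and 4 in WT, all below the filter, and CAL was not analysed here.

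Genes that promote the floral transition went both ways, 6 of 12 tested higher and 2 lower, with a median of 0.32. FT (AT1G65480, TAIR10.1 chr1:24331373-24333999), the mobile signal made in leaves, had 69 and 100 in rlt1/2, against 12 and 25 in WT (1.75 ± 0.27, 4.56-fold, adjusted p = 0.000197). SOC1 (AT2G45660, TAIR10.1 chr2:18807505-18811125), which acts after FT in the shoot apex, had 495 and 461 in rlt1/2, against 1223 and 1051 in WT (-1.23 ± 0.095, 2.38-fold, adjusted p = 1.19e-06). FT was higher and SOC1 lower in every rlt1/2 library than in any WT library. AGL42, a close relative of SOC1, had 189 and 212 in rlt1/2, against 63 and 113 in WT (1.15 ± 0.22, 2.28-fold, adjusted p = 0.000944). The squamosa-promoter-binding gene SPL4 had 107 and 94 in rlt1/2, against 52 and 45 in WT (0.92 ± 0.19, 2.07-fold, adjusted p = 0.00183). CO, the photoperiod activator of FT, had 34 and 23 in rlt1/2, against 11 and 4 in WT (1.16 ± 0.30, 3.8-fold, adjusted p = 0.00704), FD, the partner of FT, 75 and 72 in rlt1/2, against 43 and 29 in WT (0.88 ± 0.22, 2.05-fold, adjusted p = 0.00551), and GI 1437 and 1447 in rlt1/2, against 1114 and 1164 in WT (0.34 ± 0.073, 1.27-fold, adjusted p = 0.00229). AGL14 fell (-0.86 ± 0.21), and AGL24, AGL19, SPL5 and SPL9 were not called.

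Among repressors of flowering 12 of 22 tested fell, 2 rose and 8 were not called, with a median of -0.44. FLC (AT5G10140, TAIR10.1 chr5:3173382-3179448), which represses FT and SOC1, had 0 and 1 in rlt1/2, against 18 and 23 in WT, with 1 read in all in rlt1/2 (-1.53 ± 0.29, adjusted p = 0.000859; 47.1-fold, 95% interval 7.91 to 1910). FLC passed the filter through the WT libraries alone, so that it had to differ, as did BFT below. Its paralogues followed in part. MAF3 had 69 and 65 in rlt1/2, against 387 and 434 in WT (-2.45 ± 0.15, 6.14-fold, adjusted p = 1.72e-07), FLM 564 and 630 in rlt1/2, against 1139 and 1101 in WT (-0.90 ± 0.086, 1.88-fold, adjusted p = 5.5e-06), MAF2 714 and 741 in rlt1/2, against 1069 and 1235 in WT (-0.65 ± 0.089, 1.58-fold, adjusted p = 7.71e-05) and MAF4 16 and 9 in rlt1/2, against 28 and 38 in WT (-0.93 ± 0.27, 2.6-fold, adjusted p = 0.0118). MAF5, in the same tandem cluster as MAF2 to MAF4, had 133 and 125 in rlt1/2, against 44 and 35 in WT and rose (1.5 ± 0.19, 3.28-fold, adjusted p = 4.93e-05). SVP, a partner of FLC, had 1554 and 1308 in rlt1/2, against 2812 and 2726 in WT (-0.95 ± 0.086, 1.93-fold, adjusted p = 3.58e-06).

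The AP2-type repressor SNZ had 133 and 124 in rlt1/2, against 804 and 665 in WT (-2.42 ± 0.13, 5.71-fold, adjusted p = 7.29e-08), while its relatives SMZ (0.07 ± 0.19), TOE2 (0.19 ± 0.082) and TOE3 (-0.20 ± 0.15) were not called. CDF1, which represses CO, had 468 and 380 in rlt1/2, against 1013 and 1003 in WT (-1.24 ± 0.10, 2.37-fold, adjusted p = 2.13e-06), and CDF2 and CDF3 fell too (-0.29 ± 0.11 and -0.68 ± 0.091). BFT, an FT relative that delays flowering, had 1 and 2 in rlt1/2, against 34 and 16 in WT, 3 reads in all in rlt1/2 (-1.58 ± 0.32, adjusted p = 0.00149; 19.3-fold, 95% interval 6.17 to 97.1). ATC, a TFL1-like repressor, went the other way with 849 and 1113 in rlt1/2, against 232 and 221 in WT (2.05 ± 0.12, 4.33-fold, adjusted p = 1.95e-07). In SNZ, CDF1 and ATC the groups were well apart. In place of 2 repressors, 7 were called higher with equal library totals, 6 with a replicate block, and 4 without WT replicate 2 or without rlt1/2 replicate 1.

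**Figure D2:**
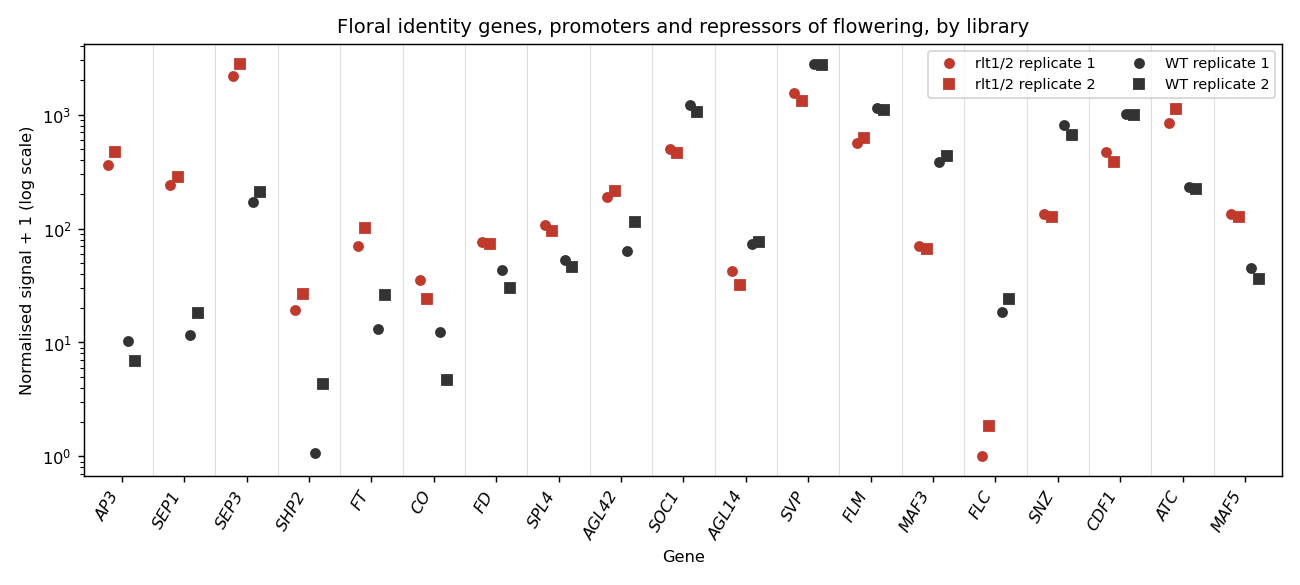
Normalised signal plus 1, on a log scale, of 19 flowering genes in each library, rlt1/2 in red left of WT in black, circles for replicate 1 and squares for replicate 2, with the genes picked for plotting after their values were seen. AP3, SEP1 and SEP3 stand far higher in both rlt1/2 libraries, FLC, MAF3 and SNZ far lower, and FT and SOC1 move in opposite directions.

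Nuclear genes of photosynthesis fell together. All 34 tested were called lower in rlt1/2, with changes between -1.57 and -0.89 and a median of -1.08, and their summed share of reads was 9.76% and 8.35% in rlt1/2, against 16% and 15.6% in WT. LHCB1.3, an antenna protein of photosystem II and the gene with the highest signal among them, had 252057 and 206903 in rlt1/2, against 515706 and 493732 in WT (-1.14 ± 0.37, 2.2-fold, adjusted p = 0.024). PSAG, a photosystem I subunit, had 4903 and 3983 in rlt1/2, against 9090 and 9007 in WT (-1.03 ± 0.096, 2.04-fold, adjusted p = 4.44e-06), and the plastocyanin gene PETE1 3920 and 3394 in rlt1/2, against 7183 and 6758 in WT (-0.93 ± 0.085, 1.91-fold, adjusted p = 3.87e-06). Both rlt1/2 libraries stood below both WT libraries in all 34 genes, which a call nearly requires. Groups were apart in 9921 of the 9926 genes called. Without WT replicate 1 the list held 17 calls, without WT replicate 2 it held 20, and with quantile normalisation, which gives the top ranks the same value in each library by construction, 17, with LHCA1, LHCB3, PSBO1 and RBCS3B at 0.05 to 0.24, and LHCB1.3, LHCB6, PSBP1, RBCS1A and RCA at 0, none of them called. Reads of near-identical copies, such as LHCB1.1 to LHCB1.3, LHCB2.1 and LHCB2.2 or the RBCS genes, may have been split between them by the authors' counting.

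Chlorophyll synthesis genes fell with them, 13 of 14 tested, with a median of -0.91. PORA has been described above, and PORB, its counterpart in light-grown plants, had 3965 and 3114 in rlt1/2, against 12203 and 11695 in WT (-1.76 ± 0.10, 3.38-fold, adjusted p = 1.6e-07). CHLM, the magnesium protoporphyrin methyltransferase, had 7452 and 6413 in rlt1/2, against 14725 and 14623 in WT (-1.08 ± 0.093, 2.12-fold, adjusted p = 2.45e-06), and the cyclase CRD1 30434 and 24826 in rlt1/2, against 61316 and 60250 in WT (-1.14 ± 0.14, 2.2-fold, adjusted p = 4.47e-05). GLK1, the paralogue of GLK2 at another locus, had 4317 and 3588 in rlt1/2, against 7837 and 7215 in WT (-0.93 ± 0.094, 1.9-fold, adjusted p = 7.8e-06), so that both activators were lower. GUN4 had 1 and 12 in rlt1/2, against 8 and 10 in WT and was not called (-0.33 ± 0.36). Under quantile normalisation CHLH stood at 0.06.

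Root markers were read beside these, because whole seedlings contain roots. Of 14 tested, 9 rose, 1 fell (SCR, -0.23 ± 0.078, at 0.05 with equal library totals) and 4 were not called, with a median of 0.70. Their summed signal was 63439 and 81616 in rlt1/2, against 32433 and 34093 in WT, most of it from PYK10, a beta-glucosidase of root endoplasmic reticulum bodies (59634 and 77299 in rlt1/2, against 29727 and 31381 in WT). The root hair genes LRX1 (858 and 832 in rlt1/2, against 236 and 274 in WT; 1.69 ± 0.10, 3.31-fold, adjusted p = 2.15e-07), COBL9 (1.42 ± 0.19), EXPA18 (1.28 ± 0.18), EXPA7 (0.96 ± 0.16) and RHD6 (1.13 ± 0.19) all rose, whereas the stem cell markers WOX5 (0.04 ± 0.26), PLT1 (0.45 ± 0.23) and PLT2 (-0.26 ± 0.27) were not called. In whole seedlings fewer cells of a type and less RNA per cell cannot be told apart, and the part of a shift between green and root tissue in these results was not tested. The green tissue label itself holds in all 4 libraries, in which photosynthesis genes took at least 8.35% of reads.

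Of 20 cold- and drought-responsive genes tested, 12 fell, 1 rose and 7 were not called, with a median of -0.93. Rises numbered 5 with equal library totals, 3 with quantile normalisation or without rlt1/2 replicate 1, and 2 with a replicate block or without WT replicate 2. COR15A, which protects chloroplast membranes during freezing, had 267 and 151 in rlt1/2, against 992 and 733 in WT (-2.03 ± 0.21, 4.11-fold, adjusted p = 9.08e-06), and its neighbour COR15B 31 and 17 in rlt1/2, against 262 and 208 in WT (-2.87 ± 0.22, 9.75-fold, adjusted p = 1.24e-06). KIN1 had 65 and 40 in rlt1/2, against 339 and 320 in WT (-2.48 ± 0.20, 6.29-fold, adjusted p = 1.39e-06). Its tandem neighbour COR6.6 had 332 and 269 in rlt1/2, against 1462 and 1644 in WT (-2.34 ± 0.11, 5.16-fold, adjusted p = 2.98e-08), and the 2 genes are alike enough that reads may have been shared. The dehydrin RAB18, responsive to abscisic acid, had 336 and 312 in rlt1/2, against 1474 and 1145 in WT (-1.97 ± 0.11, 4.04-fold, adjusted p = 1.48e-07), and P5CS1, the rate-limiting enzyme of proline synthesis, 8914 and 5588 in rlt1/2, against 33885 and 26715 in WT (-2.09 ± 0.18, 4.18-fold, adjusted p = 2.45e-06). In all of these the libraries of rlt1/2 lay below those of WT.

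RD29A had 826 and 744 in rlt1/2, against 2013 and 1714 in WT (-1.23 ± 0.092, 2.37-fold, adjusted p = 9.19e-07) and its neighbour RD29B 20 and 10 in rlt1/2, against 106 and 74 in WT (-2.0 ± 0.26, 5.88-fold, adjusted p = 6.18e-05). NCED3, which limits abscisic acid synthesis, had 221 and 199 in rlt1/2, against 484 and 380 in WT (-1.0 ± 0.14, 2.06-fold, adjusted p = 8.05e-05). The activators CBF2 (12 and 30 in rlt1/2, against 20 and 22 in WT) and CBF3 (23 and 23 in rlt1/2, against 29 and 37 in WT) were not called, and CBF1 was below the filter. The dehydrins COR47, ERD10, ERD14 and LTI30 were not called either (0.21 ± 0.083, -0.13 ± 0.075, 0.03 ± 0.086 and 0.17 ± 0.15). ADH1, alcohol dehydrogenase, was the member that rose (4543 and 3137 in rlt1/2, against 2269 and 1542 in WT; 1.01 ± 0.17, 2.02-fold, adjusted p = 0.00042).

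The promoters of 4 of the genes that fell are shown, as the 250 bases before the annotated transcript start in RefSeq's TAIR10.1 annotation, 5′ to 3′ on the strand of the gene, because CBF proteins bind CCGAC and abscisic acid-responsive factors bind elements around ACGTG. Capitals mark each match to CCGAC or ACGTG on either strand (GTCGG and CACGT in reverse). The matches were read as letters only, and genes and motifs were chosen after the values were seen.
COR15A, minus strand, chr2:17712331-17712580: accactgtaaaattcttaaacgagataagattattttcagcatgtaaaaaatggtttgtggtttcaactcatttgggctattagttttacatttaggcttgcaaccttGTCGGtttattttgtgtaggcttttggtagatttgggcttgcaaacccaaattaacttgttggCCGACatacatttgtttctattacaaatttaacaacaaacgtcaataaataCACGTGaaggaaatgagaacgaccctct
RD29A, plus strand, chr5:21240467-21240716: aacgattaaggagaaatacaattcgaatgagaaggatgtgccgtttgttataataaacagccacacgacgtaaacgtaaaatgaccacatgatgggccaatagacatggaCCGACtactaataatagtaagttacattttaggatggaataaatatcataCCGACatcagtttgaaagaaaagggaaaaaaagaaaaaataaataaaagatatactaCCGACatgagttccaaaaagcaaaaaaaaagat
KIN1, plus strand, chr5:5209467-5209716: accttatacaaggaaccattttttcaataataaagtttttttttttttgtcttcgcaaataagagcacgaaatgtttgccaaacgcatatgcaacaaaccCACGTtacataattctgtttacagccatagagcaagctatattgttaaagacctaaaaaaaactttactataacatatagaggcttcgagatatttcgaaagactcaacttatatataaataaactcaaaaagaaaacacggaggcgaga
COR6.6, plus strand, chr5:5211469-5211718: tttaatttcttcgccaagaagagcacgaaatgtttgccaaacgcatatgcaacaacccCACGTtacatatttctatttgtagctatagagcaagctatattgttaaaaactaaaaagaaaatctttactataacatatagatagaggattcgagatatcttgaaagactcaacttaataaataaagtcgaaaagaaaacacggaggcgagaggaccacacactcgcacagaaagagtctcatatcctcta

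COR15A has 2 matches to CCGAC, 142 and 79 bases before the start, and 2 overlapping matches to ACGTG in 1 palindrome. RD29A has 3 matches to CCGAC, at 140, 90 and 33 bases, and none to ACGTG. KIN1 and COR6.6 have 1 match to ACGTG each and none to CCGAC in this window, and are alike over most of it, 187 of 204 aligned bases being identical (91.7%). CCGAC stood in 5 of the 12 promoters of the cold and drought genes that fell (41.7%), in 1 of the 7 that were not called (14.3%) and in 12.7% of the 20735 promoters of genes tested. ACGTG stood in 8 of the 12 (66.7%), in 3 of the 7 (42.9%) and in 23.7% of all. ADH1, the 1 member that rose, also had ACGTG, and had no CCGAC. These shares describe letters in a window and were not tested.

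Iron homeostasis genes moved in both directions. Of 19 tested, 11 fell, 4 rose and 4 were not called, with a median of -0.85. The subgroup Ib bHLH factors, which switch on iron uptake, all fell: bHLH100 had 11 and 0 in rlt1/2, against 93 and 98 in WT (-2.82 ± 0.31, adjusted p = 1.52e-05), bHLH101 8 and 3 in rlt1/2, against 52 and 51 in WT (-1.99 ± 0.26, adjusted p = 6.49e-05), bHLH38 5 and 4 in rlt1/2, against 25 and 63 in WT (-1.81 ± 0.34, adjusted p = 0.000814) and bHLH39 43 and 16 in rlt1/2, against 88 and 120 in WT (-1.61 ± 0.30, adjusted p = 0.000823). The iron-signal peptide gene IMA3 had 119 and 66 in rlt1/2, against 474 and 485 in WT (-2.31 ± 0.21, 5.16-fold, adjusted p = 3.29e-06), and the related IMA1 and IMA2 fell too (-1.59 ± 0.20 and -1.46 ± 0.19). ORG1 had 1694 and 1314 in rlt1/2, against 3473 and 3354 in WT (-1.19 ± 0.10, 2.27-fold, adjusted p = 2.45e-06). bHLH101 and bHLH38 passed the filter through the WT libraries alone, so that they had to differ.

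The sensors and regulators PYE and BTS fell too (-1.11 ± 0.12 and -0.85 ± 0.094). FIT, the root regulator of uptake, rose, with 191 and 303 in rlt1/2, against 141 and 127 in WT (0.80 ± 0.19, 1.84-fold, adjusted p = 0.00422), while its targets IRT1 (301 and 134 in rlt1/2, against 239 and 165 in WT) and FRO2 (167 and 84 in rlt1/2, against 147 and 134 in WT) were not called and varied between the rlt1/2 libraries. F6'H1, which makes coumarins that mobilise iron, had 1367 and 1669 in rlt1/2, against 439 and 417 in WT (1.80 ± 0.10, 3.55-fold, adjusted p = 1.12e-07), and the coumarin exporter ABCG37 2897 and 3037 in rlt1/2, against 1381 and 1513 in WT (1.03 ± 0.075, 2.05-fold, adjusted p = 7.34e-07). All 3 ferritin genes tested, which store iron in plastids, rose. FER1 had 8523 and 9004 in rlt1/2, against 4755 and 4647 in WT (0.90 ± 0.076, 1.86-fold, adjusted p = 2.34e-06), FER3 1016 and 1093 in rlt1/2, against 632 and 677 in WT (0.68 ± 0.084, 1.61-fold, adjusted p = 3.73e-05) and FER4 689 and 725 in rlt1/2, against 483 and 507 in WT (0.50 ± 0.09, 1.43-fold, adjusted p = 0.000589).

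Auxin genes held 15 members lower and 8 higher of 27 tested, with a median of -0.45. The tandem growth genes SAUR19 to SAUR24, which promote cell expansion, all fell. SAUR21 had 136 and 140 in rlt1/2, against 451 and 478 in WT (-1.68 ± 0.12, 3.36-fold, adjusted p = 7.37e-07) and SAUR20 99 and 89 in rlt1/2, against 351 and 331 in WT (-1.76 ± 0.14, 3.64-fold, adjusted p = 1.54e-06), and the 6 changes lay between -1.76 and -1.48. These genes are close copies, so that their reads may not be independent. IAA29, an auxin-induced repressor, had 35 and 50 in rlt1/2, against 231 and 193 in WT (-2.09 ± 0.20, 5.03-fold, adjusted p = 4.75e-06), and the synthesis gene TAA1 193 and 252 in rlt1/2, against 443 and 430 in WT (-0.96 ± 0.14, 1.97-fold, adjusted p = 0.000103).

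Genes that make or remove auxin rose in part. YUC9, which makes auxin after TAA1, had 374 and 390 in rlt1/2, against 35 and 69 in WT (2.72 ± 0.22, 7.35-fold, adjusted p = 1.92e-06), with both rlt1/2 libraries far above WT, and YUC8 rose as well (0.98 ± 0.15). GH3.3, which conjugates auxin, had 428 and 579 in rlt1/2, against 128 and 110 in WT (1.98 ± 0.16, 4.23-fold, adjusted p = 1.36e-06), and the oxidase gene DAO1 562 and 671 in rlt1/2, against 218 and 224 in WT (1.43 ± 0.12, 2.79-fold, adjusted p = 1.69e-06). PIN3 was called lower (-0.21 ± 0.082) but stood at 0.06 with equal library totals.

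Leaf-patterning and leaf-maturation genes were mixed. Of 19 in the patterning list 8 fell and 1 rose, with a median of -0.08. Over all genes 24% were called lower and 23.8% higher. Calls in either direction were near the share over all genes (47.9%). The YABBY genes YAB5 (138 and 131 in rlt1/2, against 396 and 480 in WT; -1.62 ± 0.14, 3.25-fold, adjusted p = 2.06e-06) and YAB3 (463 and 366 in rlt1/2, against 974 and 932 in WT; -1.19 ± 0.11, 2.3-fold, adjusted p = 4.29e-06), which mark the lower leaf side, fell most, and FIL (-0.63 ± 0.087), YAB2 (-0.38 ± 0.12) and AS1 (-0.79 ± 0.086) fell too. Of the shoot meristem genes, KNAT6 (-0.54 ± 0.18) and CLV1 (-0.43 ± 0.077) fell, and STM, BP and KNAT2 were not called (0.29 ± 0.21, 0.13 ± 0.12 and 0.50 ± 0.26). The call of CLV1 was lost with equal library totals (-0.16). CUC1, an organ boundary gene, was the rise (31 and 26 in rlt1/2, against 5 and 7 in WT; 1.28 ± 0.27, 4.94-fold, adjusted p = 0.00168). CUC1 passed the filter through the rlt1/2 libraries alone, so that it had to differ, and no rise was called without rlt1/2 replicate 1. Equal library totals gave 4 falls and 7 rises, and DESeq2 5 falls. Of 8 CIN-type TCP genes, which promote leaf maturation, 5 fell and 1 rose, among them TCP2 (578 and 444 in rlt1/2, against 1121 and 921 in WT; -0.99 ± 0.13, 2-fold, adjusted p = 4.65e-05) and TCP24 (-0.73 ± 0.09). WUS and CLV3 were not analysed here.

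Of 20 clock genes tested 11 fell and 4 rose (median -0.41), and 7 fell with equal library totals. PRR7 had 2445 and 2167 in rlt1/2, against 4483 and 4701 in WT (-0.99 ± 0.079, 1.99-fold, adjusted p = 1.39e-06), PRR9 813 and 751 in rlt1/2, against 1523 and 1347 in WT (-0.87 ± 0.086, 1.84-fold, adjusted p = 6.99e-06) and RVE4 1519 and 1432 in rlt1/2, against 2741 and 2641 in WT (-0.86 ± 0.072, 1.82-fold, adjusted p = 2.02e-06). LUX, which acts in the evening, had 425 and 478 in rlt1/2, against 220 and 242 in WT (0.94 ± 0.12, 1.95-fold, adjusted p = 4.42e-05). PRR3 had 55 and 79 in rlt1/2, against 15 and 13 in WT (1.67 ± 0.24, 4.81-fold, adjusted p = 0.000135), and PRR5 also rose (0.83 ± 0.20). CCA1 fell (-0.59 ± 0.084) and its paralogue LHY rose (0.41 ± 0.074). The hour of harvest is not given in the labels, and the part of a difference in harvest time was not tested.

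Jasmonate genes rose in their majority, 14 of 24 tested, while 4 fell (median 0.39). CORI3, a coronatine- and wound-induced lyase, had 7494 and 12422 in rlt1/2, against 2255 and 1826 in WT (2.24 ± 0.18, 4.88-fold, adjusted p = 1.32e-06). The synthesis genes LOX3 (738 and 865 in rlt1/2, against 278 and 273 in WT; 1.5 ± 0.11, 2.91-fold, adjusted p = 5.65e-07), LOX2 (24495 and 29405 in rlt1/2, against 12383 and 10700 in WT; 1.22 ± 0.12, 2.33-fold, adjusted p = 5.81e-06) and OPR3 (1392 and 1447 in rlt1/2, against 700 and 652 in WT; 1.06 ± 0.079, 2.1-fold, adjusted p = 9.43e-07) rose, with every rlt1/2 library above WT. The repressor genes JAZ1 (720 and 917 in rlt1/2, against 246 and 310 in WT; 1.52 ± 0.13, 2.95-fold, adjusted p = 3.14e-06) and JAZ5 (1.61 ± 0.23) rose, which the hormone itself is known to induce. AOC2, VSP2, JAZ6 and JAR1 fell (-0.70 ± 0.10, -0.56 ± 0.14, -0.58 ± 0.078 and -0.38 ± 0.07), AOS and COI1 were not called, and MYC2 was not analysed here.

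Salicylic acid defence genes rose in 11 of 22 cases and fell in 2 (median 0.42). FMO1, which makes the immune signal N-hydroxypipecolic acid, had 204 and 231 in rlt1/2, against 56 and 44 in WT (1.93 ± 0.18, 4.36-fold, adjusted p = 4.09e-06). NPR3, SAG101 and EDS5 rose by 0.65 ± 0.078, 0.93 ± 0.12 and 0.94 ± 0.13. The response marker PR1 was called lower, with 62 and 31 in rlt1/2, against 904 and 95 in WT, and WT replicate 1 was far above the other 3 libraries (-2.50 ± 0.68, adjusted p = 0.00915). ICS1, which makes salicylic acid, was not called (-0.04 ± 0.092). PR4, a chitin-binding defence protein, was among the most abundant genes that rose (18979 and 21014 in rlt1/2, against 3290 and 3515 in WT; 2.55 ± 0.086, 5.88-fold, adjusted p = 3.88e-09), together with the glutathione-linked reductase DHAR1 (1.18 ± 0.10) and the extensin EXT3 (1.18 ± 0.10).

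Anthocyanin genes were mostly higher. Of 22 flavonoid and anthocyanin genes tested 14 rose and 4 fell (median 0.43). LDOX had 837 and 710 in rlt1/2, against 264 and 226 in WT (1.62 ± 0.12, 3.16-fold, adjusted p = 7.34e-07), DFR 968 and 770 in rlt1/2, against 324 and 199 in WT (1.73 ± 0.18, 3.32-fold, adjusted p = 1.1e-05) and the glycosyltransferase gene UGT79B1 201 and 174 in rlt1/2, against 57 and 44 in WT (1.71 ± 0.18, 3.72-fold, adjusted p = 1.26e-05). Their activator PAP1 (AT1G56650) had 112 and 115 in rlt1/2, against 37 and 27 in WT (1.57 ± 0.21, 3.56-fold, adjusted p = 5.65e-05), and the repressor MYBL2 fell, with 999 and 805 in rlt1/2, against 2345 and 2470 in WT (-1.41 ± 0.096, 2.67-fold, adjusted p = 4.24e-07). CHS, the first committed enzyme, rose by 0.27 ± 0.081, and FLS1 was called lower (-0.24 ± 0.09) but stood at 0.03 with equal library totals. F3H was not analysed here.

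Starch and sugar phosphate genes other than BAM5 and GPT2 moved less. APL3, a subunit that commits glucose to starch, had 2521 and 2408 in rlt1/2, against 1002 and 871 in WT (1.39 ± 0.082, 2.63-fold, adjusted p = 1.72e-07), and SEX1, which starts starch breakdown, 3472 and 3114 in rlt1/2, against 6080 and 5439 in WT (-0.80 ± 0.084, 1.75-fold, adjusted p = 1.03e-05). In total 5 of 9 rose and 1 fell (median 0.27). Of 16 phosphate starvation genes 10 rose and 1 fell, PHR1, the main regulator (-0.40 ± 0.071) (median 0.44). PHR1 stood at -0.13 and was not called with equal library totals, where no member fell, while 3 fell with a replicate block and 2 without WT replicate 1 or rlt1/2 replicate 1. PHT1;1, a phosphate importer, had 4470 and 4664 in rlt1/2, against 2132 and 2463 in WT (0.99 ± 0.082, 1.99-fold, adjusted p = 1.88e-06), and PECP1 569 and 587 in rlt1/2, against 172 and 219 in WT (1.52 ± 0.13, 2.95-fold, adjusted p = 2.07e-06). NRT2.1, a high-affinity nitrate transporter, had 473 and 332 in rlt1/2, against 133 and 127 in WT (1.54 ± 0.16, 3.1-fold, adjusted p = 1.14e-05) and NRT1.1 rose (0.60 ± 0.081), whereas nitrite reductase NIR1 (-0.54 ± 0.085) and nitrate reductase NIA1 (-0.36 ± 0.081) fell, with NIA2 not called. The call of NIA1 was lost with equal library totals (-0.09), with quantile normalisation (-0.14) and without WT replicate 2 (-0.33).

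**Figure D3:**
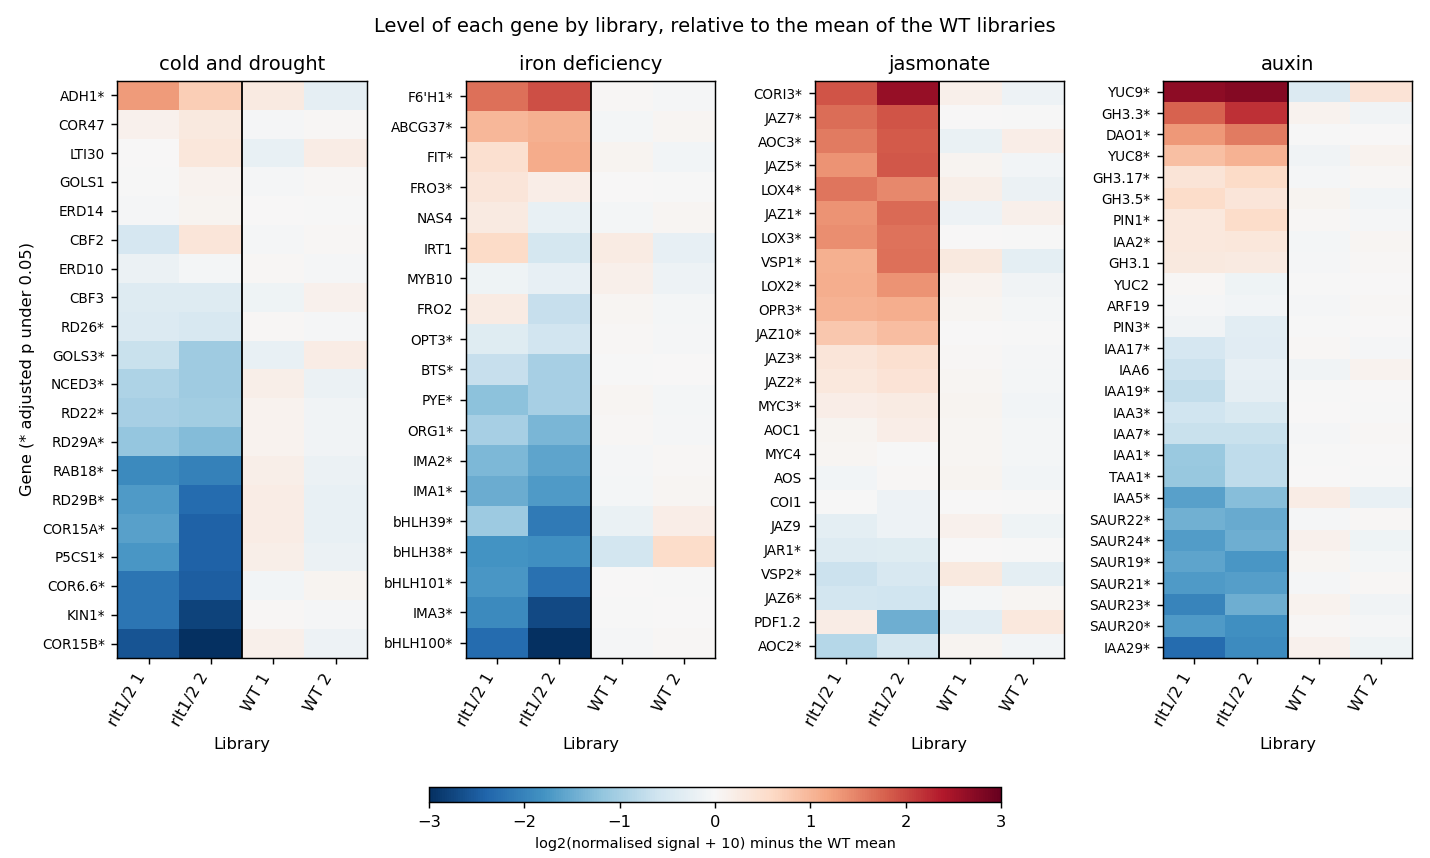
Each cell is log2(normalised signal + 10) of a gene in a library minus the mean of the WT libraries, for the cold and drought, iron, jasmonate and auxin lists, with the rlt1/2 libraries left of the line and WT right of it. Stars mark called genes (PIN3 turns direction with equal library totals). The rlt1/2 libraries share the low cold, subgroup Ib bHLH and SAUR genes and the high jasmonate genes. The WT columns lie evenly about 0 by construction, since their mean was subtracted.

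The remaining lists gave fewer calls or small changes, beside 23.8% of all genes called higher and 24% called lower. Of 11 mitotic genes 1 was called, CDKB1;1 (306 and 338 in rlt1/2, against 171 and 189 in WT; 0.80 ± 0.13, 1.79-fold, adjusted p = 0.000285), and the median was -0.03. With equal library totals 6 were called higher, with a replicate block or without rlt1/2 replicate 1 there were 2, and with quantile normalisation 1 was called lower. Of 16 other remodelling genes 6 fell and none rose (median -0.09), among them the SWI/SNF ATPase genes MINU1 (933 and 829 in rlt1/2, against 1298 and 1343 in WT; -0.58 ± 0.083, 1.5-fold, adjusted p = 0.000109), MINU2 (-0.50 ± 0.095) and BRM (-0.42 ± 0.093). With equal library totals 8 of these genes were called higher and 2 lower, and INO80, called lower as deposited (-0.27 ± 0.077), stood at 0.00. The calls of MINU2 (-0.22) and BRM (-0.15) were lost under that scaling too. Of 12 Polycomb and histone methylation genes 3 rose, CLF (0.42 ± 0.084), MSI1 (0.36 ± 0.074) and ATX1 (0.43 ± 0.11), and REF6 fell (-0.29 ± 0.093), a call lost under 5 alternatives. The call of ATX1 was lost without WT replicate 1 (0.32). With equal library totals 7 were called higher and none lower.

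Heat shock genes had 5 of 11 called higher and none lower (median 0.10), with HSP18.2 at 319 and 439 in rlt1/2, against 72 and 103 in WT (2.00 ± 0.19, 4.33-fold, adjusted p = 5.08e-06) and HSP90.1 at 1005 and 869 in rlt1/2, against 417 and 428 in WT (1.13 ± 0.096, 2.22-fold, adjusted p = 2.35e-06), but HSP101 and HSP70 were not called (0.10 ± 0.098 and 0.04 ± 0.072). For this and the following lists, the shares over all genes were 23.8% called higher and 24% called lower. Aliphatic glucosinolate genes gave 2 rises and 4 falls of 15 (median 0.08), with the activator MYB29 at 659 and 515 in rlt1/2, against 1264 and 1081 in WT (-0.99 ± 0.12, 1.99-fold, adjusted p = 2.44e-05). The balance of this list turned with scaling, to 10 higher and 1 lower with equal library totals and 7 higher with quantile normalisation, and 5 were higher with a replicate block or without rlt1/2 replicate 2. Without WT replicate 1 it held 1 rise and 2 falls. Indole glucosinolate genes gave 5 rises and 1 fall of 10 (median 0.21), with CYP79B2 at 2047 and 2190 in rlt1/2, against 1467 and 1536 in WT (0.49 ± 0.073, 1.41-fold, adjusted p = 0.000152). Of 4 senescence genes SAG13 rose (3368 and 1468 in rlt1/2, against 294 and 180 in WT; 3.22 ± 0.29, 10.2-fold, adjusted p = 3.82e-06), NAP fell (-0.50 ± 0.11) and ORE1 and SGR1 were not called. The call of NAP was lost with equal library totals (-0.23).

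Seed and anther markers were read for tissues that a seedling sample could hold by accident. All 3 seed genes that passed the filter were called higher, FUS3 (25 and 19 in rlt1/2, against 4 and 5 in WT), CRA1 (28 and 30 in rlt1/2, against 9 and 3 in WT) and SESA4 (11 and 14 in rlt1/2, against 0 and 0 in WT), but they passed the filter through rlt1/2 alone, and the summed signal of the list was 77 and 79 in rlt1/2, against 15 and 17 in WT. Of the anther markers only LAP6 was tested (155 and 160 in rlt1/2, against 200 and 197 in WT; -0.31 ± 0.14, adjusted p = 0.0827) and it was not called. The part of seed remnants or early flower buds in the results above was not tested.

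**Figure D4:**
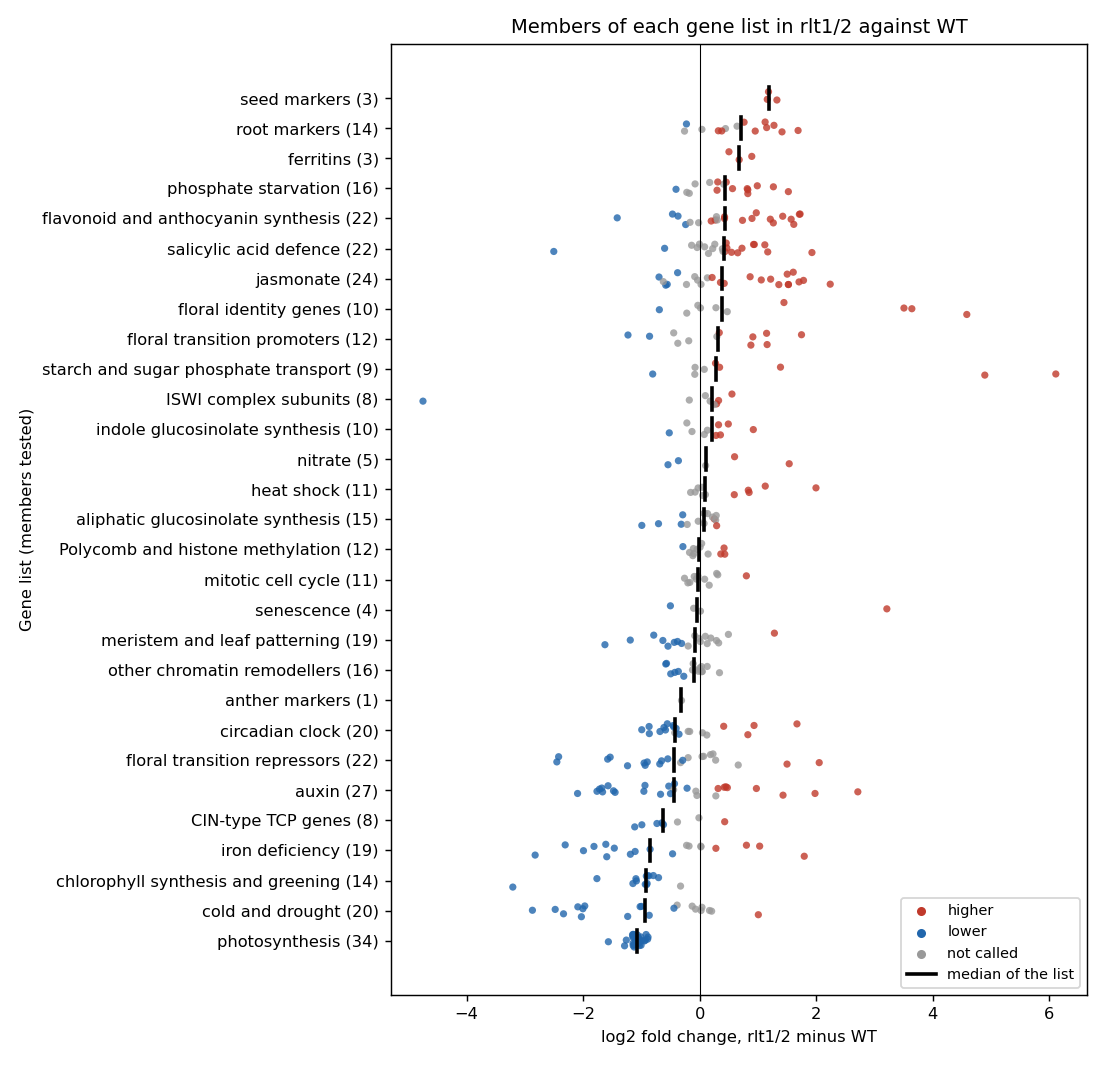
Each point is the log2 fold change, rlt1/2 minus WT, of a tested member of a gene list, red where called higher, blue where called lower and grey where not called, with a black bar at the median of the list. Photosynthesis genes (median -1.08 as deposited, 4 of them just above 0 under quantile normalisation) and chlorophyll genes cluster below 0, root markers lie mostly above 0 (median 0.70), and most other lists spread to both sides.

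The rlt1/2 libraries were next set directly against arid5, without the WT libraries on either side of the contrast, by edgeR's quasi-likelihood test on the recovered reads of all 8 libraries. Levels in this and the next contrast are CPM, the reads of a gene scaled by library totals after adjustment with edgeR's TMM factors. This scaling is not the one with equal library totals used above. Of 21371 genes 78 were called (0.365%), 69 higher (0.323%) and 9 lower (0.0421%) in rlt1/2, with 1698 at an unadjusted p under 0.05, and 92.4% of genes differed by less than 0.5. In the same fit 9731 genes were called for rlt1/2 against WT (45.5%), a count added after seeing the data. The count against arid5 rests on single libraries: it was 10 without arid5 replicate 2, 43 without arid5 replicate 1, 36 without rlt1/2 replicate 2 and 66 without rlt1/2 replicate 1, and DESeq2 called 175.

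The mutated genes stood apart in this contrast. RLT2 had 3.26 and 2.3 CPM in rlt1/2, against 111 and 114 CPM in arid5 (log2 difference -5.34, adjusted p = 7.66e-09). ARID5 had 45 and 42.1 CPM in rlt1/2, against 8.85 and 8.53 CPM in arid5 (2.32, adjusted p = 2.93e-07). RLT1 had 86.5 and 71.5 CPM in rlt1/2, against 114 and 117 CPM in arid5 (-0.55, adjusted p = 0.0307). Groups did not overlap in these 3 genes. WT had 73.5 and 74 CPM of RLT1, between the rlt1/2 libraries, so that the RLT1 difference does not show a loss in rlt1/2.

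Genes higher in rlt1/2 than in arid5 included defence and stress genes. The 5 with the largest differences were BSMT1, a salicylic and benzoic acid methyltransferase (1.82 and 4.15 CPM in rlt1/2, against 0.443 and 0.0779 CPM in arid5; 3.53, adjusted p = 0.042), DXPS1 (30.4 and 19.8 CPM in rlt1/2, against 3.5 and 1.09 CPM in arid5; 3.45, adjusted p = 0.00395), SAG13 (126 and 55.2 CPM in rlt1/2, against 10.3 and 6.9 CPM in arid5; 3.39, adjusted p = 0.00395), ELI3-2, an alcohol dehydrogenase-like defence gene (8.24 and 4.91 CPM in rlt1/2, against 1.05 and 0.273 CPM in arid5; 3.31, adjusted p = 0.0062) and AT5G55410 (1.79 and 4 CPM in rlt1/2, against 0.443 and 0.584 CPM in arid5; 2.50, adjusted p = 0.0399). The calls of BSMT1, SAG13, ELI3-2 and AT5G55410 were among those lost without arid5 replicate 2. Those of BSMT1 and AT5G55410 were also lost without arid5 replicate 1, without rlt1/2 replicate 2 and with a replicate block. BAM5, RNS1, NATA1, AO4, CSLG2 and LAS1 of the largest rises against WT were called here too, at 1.74, 1.64, 1.42, 2.39, 2.45 and 1.14.

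Some jasmonate and cell wall genes among the 69 were picked after the calls were read. LOX3 stood at 27.6 and 32.4 CPM in rlt1/2, against 15.5 and 12.8 CPM in arid5 (1.08, adjusted p = 0.00422), VSP1 at 16 and 24.4 CPM in rlt1/2, against 7.77 and 6.43 CPM in arid5 (1.51, adjusted p = 0.0183) and the jasmonate-regulated JRG21 at 4.91 and 4.94 CPM in rlt1/2, against 1.13 and 0.701 CPM in arid5 (2.43, adjusted p = 0.000416). The median of the jasmonate list was 0.35, with 2 of 25 members called higher. Among cell wall genes, EXT10 stood at 48.7 and 44.8 CPM in rlt1/2, against 26.3 and 23.2 CPM in arid5 (0.92, adjusted p = 0.00393), EXT6 at 48.5 and 44.8 CPM in rlt1/2, against 27 and 23 CPM in arid5 (0.90, adjusted p = 0.00585) and LRX1 at 32 and 31.1 CPM in rlt1/2, against 22.3 and 19.4 CPM in arid5 (0.60, adjusted p = 0.036). EXT12, EXT13, PRP3 and HRGP1 were called as well, at 0.69, 0.68, 0.60 and 0.80. LRX1 was the only called member of the 14 root markers, and the root hair genes COBL9 (0.52, adjusted p = 0.464), EXPA18 (0.51, adjusted p = 0.458) and EXPA7 (0.41, adjusted p = 0.52) were not called. Extensin genes are repetitive and alike, so that their reads may have been shared between copies.

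The lower side held 9 genes. The largest differences after RLT2 were AT1G29600 (12.7 and 9.61 CPM in rlt1/2, against 22.5 and 20.3 CPM in arid5; -0.94, adjusted p = 0.0369), AT5G56190 (-0.74), AT2G28780 (-0.69) and AT5G19190 (-0.67). The calls of AT1G29600, AT5G56190, AT2G28780 and AT5G19190 were lost without rlt1/2 replicate 2 and without arid5 replicate 2. Those of AT1G29600 and AT5G56190 were also lost without arid5 replicate 1. AT5G19190 lost its call without rlt1/2 replicate 1 too, and AT1G29600 with a replicate block. No member of the photosynthesis, cold and drought, iron, auxin, clock, floral identity or flowering-time lists was called between rlt1/2 and arid5, although genes outside the lists were, such as RD20 (1.16), STZ (1.40) and NIT2 (0.95). AP3 had 13.5 and 17.4 CPM in rlt1/2, against 9.86 and 8.3 CPM in arid5 (0.77, adjusted p = 0.16). A missed call here does not show that the mutants act alike.

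Against chr11/17, by the same test, 13805 genes were called (64.6%), 6944 higher (32.5%) and 6861 lower (32.1%) in rlt1/2, and 48.3% of genes differed by less than 0.5. CHR11 had 144 and 137 CPM in rlt1/2, against 307 and 309 CPM in chr11/17 (-1.13, adjusted p = 4.44e-07), so that its total was lower in rlt1/2 than in the libraries labelled chr11/17. The transcript total alone therefore does not show the chr11 mutation, and summed reads cannot say whether a mutant transcript was intact. CHR17 had 81.9 and 83.4 CPM in rlt1/2, against 32.7 and 35.2 CPM in chr11/17 (1.28, adjusted p = 1.69e-07). RLT2 and RLT1 were lower in rlt1/2 here too (-4.84, adjusted p = 2.3e-09, and -0.32, adjusted p = 0.00783). RLT1 had 98.7 and 98.9 CPM in chr11/17, against 73.5 and 74 CPM in WT, so that its difference again does not show a loss in rlt1/2. The directions below rest on those labels.

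All 34 photosynthesis genes were higher in rlt1/2 than in chr11/17, with a median of 1.40, and 12 of 13 chlorophyll genes were too (median 1.19). LHCB1.3 had 9410 and 7740 CPM in rlt1/2, against 2410 and 3910 CPM in chr11/17 (1.44, adjusted p = 0.000162) and GLK2 146 and 135 CPM in rlt1/2, against 38.4 and 52 CPM in chr11/17 (1.63, adjusted p = 1.91e-06). Auxin genes were higher in 19 of 27 cases (median 1.13), and 9 of 19 iron genes were higher and 2 lower (median 1.34). In the other direction 21 of 25 jasmonate genes were lower in rlt1/2 (median -2.02), as were 15 of 20 cold and drought genes (median -1.68), 17 of 23 flavonoid genes (median -1.20) and 7 of 9 starch genes (median -1.33).

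AP3 was lower in rlt1/2 than in chr11/17 (13.5 and 17.4 CPM in rlt1/2, against 36.3 and 26.5 CPM in chr11/17; -1.02, adjusted p = 0.000303). Among genes whose higher group mean reached 50 reads, the largest differences on the lower side were AT5G24080 (-6.82, adjusted p = 3.19e-08), RLP28 (-6.66, adjusted p = 5.94e-07), CYP76C2 (-6.64, adjusted p = 4.32e-08), TSPO (-6.38, adjusted p = 8.8e-07) and ELI3-2, which had 8.24 and 4.91 CPM in rlt1/2, against 688 and 583 CPM in chr11/17 (-6.61, adjusted p = 1.18e-08). BAM5, by contrast, stood at 468 and 1040 CPM in rlt1/2, against 773 and 718 CPM in chr11/17 and was not called (0.01, adjusted p = 0.97). PCC1, a pathogen- and clock-controlled membrane protein, was the most raised of these genes (14.6 and 11.7 CPM in rlt1/2, against 0.0407 and 0 CPM in chr11/17; 9.03, adjusted p = 8.74e-08), with 1 read over both chr11/17 libraries, so that its fitted difference is no bound. AT2G28270, GLR2.2, AT3G22235 and the phosphate-starvation RNA IPS1 followed, with 0 to 7 reads in each chr11/17 library. AG, below that minimum, was called higher too, with 19 and 23 reads in rlt1/2, against 0 and 0 in chr11/17 (adjusted p = 0.00028).

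**Figure D5:**
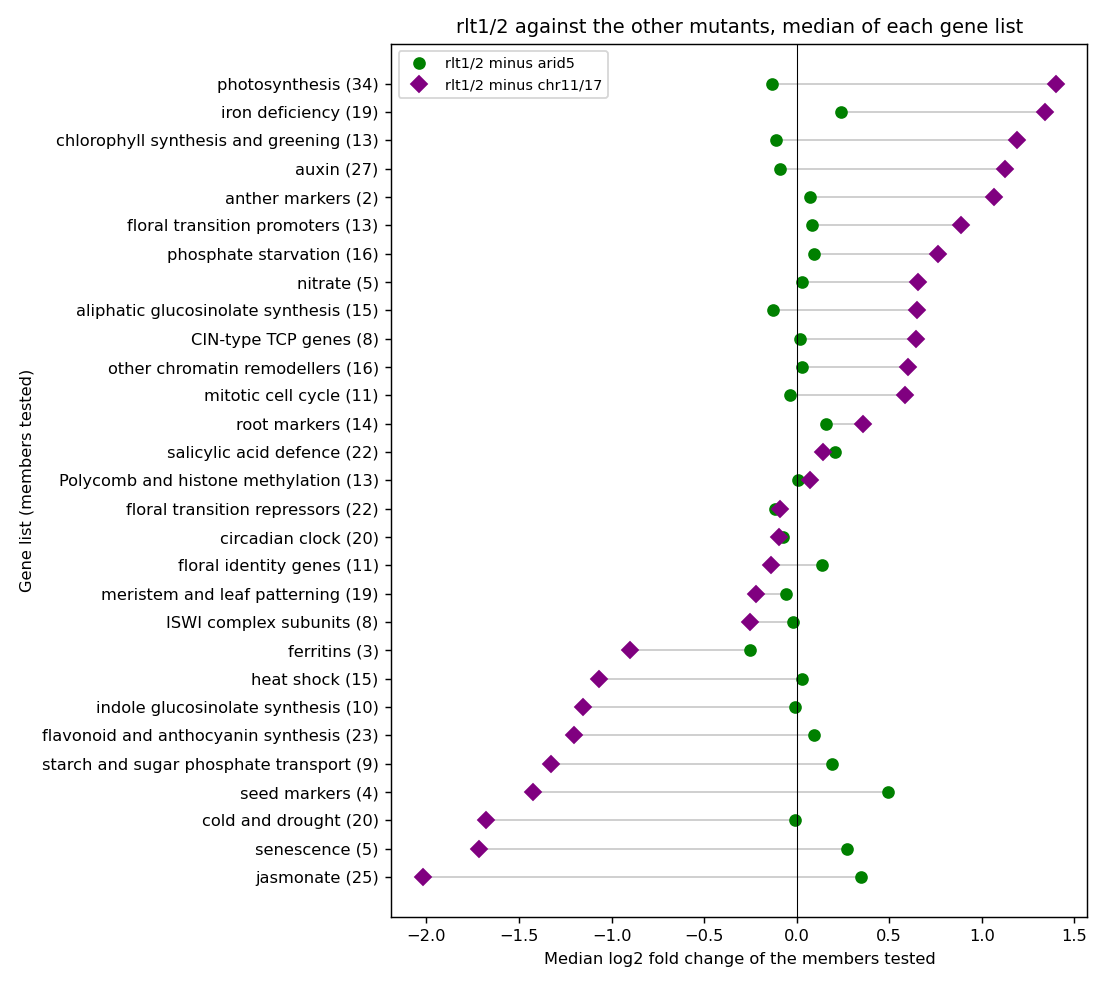
Median log2 difference of each gene list, with the number of members tested in brackets, for rlt1/2 minus arid5 (green circles) and rlt1/2 minus chr11/17 (purple diamonds). The medians against arid5 lie between -0.25 and 0.49, and those against chr11/17 range from -2.02 (jasmonate) to 1.40 (photosynthesis).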

How the data were processed

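RNA sequencing of 10-day-old seedlings gave 8 libraries, 2 for each of the 4 groups, and the 4 libraries of rlt1/2 and WT make the main comparison. The authors used HISAT2, edgeR and TAIR10, per the submitters' processing notes; for versions, counter, annotation and strandedness the sources used here give nothing. The values deposited by the authors are a normalised signal, not whole numbers, and match edgeR's quantile-adjusted pseudo-counts. Inverting that adjustment gave a whole number of reads for every value, and the same WT reads from each of the 3 tables. A simpler test, which looks for equal steps between low values, does not recover whole reads from 3 of the mutant libraries, so the read-based results rest on the inversion.

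Genes with at least 10 in 2 or more libraries were tested by limma 3.58.1 (R 4.3.3, with trend) on log2(value + 10), with Benjamini-Hochberg adjustment and a threshold of 0.05. The contrasts with arid5 and chr11/17 used edgeR 4.0.16 (quasi-likelihood, TMM) on the recovered reads of all 8 libraries. Levels there are CPM, the reads of a gene scaled by the TMM-adjusted library totals, not by the totals themselves. DESeq2 1.42.0, other pseudocounts, filters and scalings, a replicate block and leaving out each library were tried. Scripts were tested on simulated data. Intervals (95%, exact) and the floor of 3 reads per library cover counting error only.

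Named genes were the ISWI subunits and the 5 loci on either side of RLT1 and RLT2, FT, SOC1, FLC and the floral identity genes, the 15 largest rises and falls among called genes whose groups did not overlap and whose higher mean reached 50, up to 5 called members of each of 29 lists by adjusted p, the 5 called genes of each direction with the highest level and a change of at least 1, and the 5 largest differences each way against each other mutant. Other genes were named after their values were seen. The members and lists were chosen with earlier results of these data known. Names, coordinates and promoters come from RefSeq's TAIR10.1. Without strand, reads of overlapping and antisense genes cannot be told apart.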

Additional observations from a re-analysis of the deposited data

How the results depend on the processing

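For rlt1/2 against WT, the genome-wide counts of calls stayed within 1.5 times of the main values under every alternative run except equal library totals, which gave 9680 higher and 2695 lower. Counts in single gene lists moved more, as given beside them. Of those not given there, equal library totals left 2 jasmonate, 1 flavonoid and 1 salicylic acid gene lower, and indole glucosinolate rises were 3 without either WT library. Leaving out a library gave 7692 to 10079 calls, 3933 to 4841 of them higher and 3759 to 5238 lower. DESeq2 called 7749, 7734 of them in the same direction as limma, and edgeR on the same 8-library fit as the contrasts, chosen after seeing the data, called 9731. Some called list members lost or turned their direction, none of them called in the alternative. With equal library totals these were INO80 (0.003569), FLS1 (0.03263), PIN3 (0.06041) and SCR (0.04778). With quantile normalization LHCA1 (0.1169), LHCB3 (0.0497), PSBO1 (0.06534), RBCS3B (0.2432) and CHLH (0.05957) turned, and LHCB1.3, LHCB6, PSBP1, RBCS1A and RCA stood at 0. Against arid5, DESeq2 called 175 genes, 152 higher and 23 lower, in place of 78, 69 and 9, and leaving out a library gave 10 to 66, 9 to 58 higher and 1 to 8 lower. The cause was not tested. A replicate block gave 11364 calls against WT (5680 higher, 5684 lower), 64 against arid5 and 13666 against chr11/17. Deviations of same-numbered rlt1/2 and WT libraries correlated at 0.156 across genes, with only 2 pairs, so the numbers do not establish a pairing. With 2 libraries a group, leaving one out assumes that the lone library varies like the others, and levels near 10 limit what could be called.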
